A study of Mus musculus with 321 samples.

Results

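Tcf-1, the product of Tcf7, is a high-mobility-group transcription factor that drives the early steps of T cell development in the thymus. It binds short TCF/LEF motifs and is active at the CD4+CD8+ double-positive (DP) stage. At this stage thymocytes complete the rearrangement of their T cell receptor genes and are selected. Open chromatin at a gene's start usually marks a promoter. At widely used promoters it is often rich in CpG dinucleotides and shared by most cell types, whereas promoters of lineage genes are more often open in the cells that use them.

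The regions described here lay at gene boundaries, were open in wild-type (WT) DP thymocytes and were called in no Tcf-1 knockout (KO) library. Overlapping peaks of the 4 DP ATAC-seq libraries (1 bp or more) were joined into 31628 regions. ATAC-seq maps open chromatin by the cutting of a transposase. A region counted as lost where WT replicates 1 and 2 had a peak and no KO library did, and as kept where all 4 had one. A gene-boundary region had its midpoint within 1 kb of the start or of the 3′ end of a protein-coding gene. Both WT libraries had a peak in 21952 regions, of which 10032 (45.7%) were lost. Of the 8712 gene-boundary regions among the 21952, 1412 (16.2%) were lost. These 1412 regions were chosen by their DP calls, so the counts, widths and shares lost in DP cells describe the choice and carry no test. A further 6388 gene-boundary regions were kept, 912 had a peak in 1 KO library, and 12 were gained, with a peak in both KO libraries and no WT library.

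The KO cells carried the TCF-1-/- deltaVII genotype, and the WT cells were of the strain labelled C56BL/6. Both were CD4+CD8+ T cells purified by flow sorting, with 2 libraries a genotype and no age given. NIH3T3, an established mouse fibroblast line of NIH/Swiss origin, carried a retrovirus with Tcf-1 (Tcf-1 RV) or an empty one (Empty RV), with 4 ATAC-seq libraries each. Histone marks H3K27me3 and H3K9me3, both found on repressed chromatin, came from NIH3T3 cells without Tcf-1, with 2 libraries a mark. Tcf-1 binding came from 1 pooled list of summits in Tcf-1 RV cells, tagged day 2 in its name. The NIH3T3 ATAC-seq libraries were tagged day 2 or day 4. No library is stated to come from a separate animal or culture.

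The KO peak lists held 11171 and 12209 peaks, and the WT lists 23249 and 30985. No read depth came with them, so a closed region and a peak too weak to be called cannot be told apart, nor can less opening per cell and fewer cells of a kind. With the widest 11171 peaks of every DP library, 304 gene-boundary regions were lost, 5.30% of 5739 in both WT lists, and 530 were gained. Of the 1412 members, 274 (19.4%) were lost in that comparison too. The cut added no KO peak and left the list of KO replicate 1, of 11171 peaks, whole. Members therefore dropped out only where narrow WT peaks were removed, and such a removal can also make a region count as gained. So the cut does not correct for read depth. With uncut lists but without WT replicate 1, 2834 gene-boundary regions were lost. Of 10 DP thymocyte marker genes, 3 and 7 had a peak at the gene in the KO lists and 9 and 10 in the WT lists. The NIH3T3 lists had 1 to 3 of these 10. Cd4, Cd8a, Cd3d and Cd3e, among the 10, hold members, so the rule that chose the members bears on these counts. Fibroblast markers had 0 and 1 of 8 in KO and 1 and 4 of 8 in WT, against 5 to 8 of 8 in the NIH3T3 lists. NK and effector markers had none of 4 in any DP list, and B cell, myeloid and thymic epithelial markers had 0 to 1 of 4 in KO and 0 to 2 of 4 in WT. Myeloid markers had 1 to 4 of 4 in the NIH3T3 lists, so a peak at a marker does not by itself name the cells. Tcf7 itself had 1 peak in each KO list and 2 in each WT list, which does not test the deletion.

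Among the lost regions were the promoters of Cd3e, a signalling chain of the T cell receptor complex, of Lck, the kinase that starts receptor signalling, and of Il7r, the receptor for the survival cytokine IL-7. Their RefSeq promoter windows (GRCm38.p6, 250 bases before to 50 after the start) are shown because they name the T cell side of the set. They were picked after their values had been seen. Capitals mark letters of the RUNX (TGTGGTT), ETS (CCGGAAG or ACAGGAAG) and E protein (CAGCTG or CAGGTG) motifs on either strand.
Cd3e, chr9:45009562-45009861, - strand: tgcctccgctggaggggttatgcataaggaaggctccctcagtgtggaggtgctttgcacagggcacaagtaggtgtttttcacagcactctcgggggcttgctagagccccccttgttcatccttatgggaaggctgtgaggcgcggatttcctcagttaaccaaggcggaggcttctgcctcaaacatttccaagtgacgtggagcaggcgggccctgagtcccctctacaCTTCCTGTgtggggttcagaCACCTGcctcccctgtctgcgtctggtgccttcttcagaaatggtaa
Il7r, chr15:9529827-9530126, - strand: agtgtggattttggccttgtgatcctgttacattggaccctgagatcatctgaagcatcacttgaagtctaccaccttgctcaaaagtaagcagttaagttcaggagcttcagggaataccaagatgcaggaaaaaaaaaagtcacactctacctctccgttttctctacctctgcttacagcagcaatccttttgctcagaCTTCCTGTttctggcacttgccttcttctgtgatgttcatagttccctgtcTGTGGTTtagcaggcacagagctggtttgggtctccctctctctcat
Lck, chr4:129573592-129573891, - strand: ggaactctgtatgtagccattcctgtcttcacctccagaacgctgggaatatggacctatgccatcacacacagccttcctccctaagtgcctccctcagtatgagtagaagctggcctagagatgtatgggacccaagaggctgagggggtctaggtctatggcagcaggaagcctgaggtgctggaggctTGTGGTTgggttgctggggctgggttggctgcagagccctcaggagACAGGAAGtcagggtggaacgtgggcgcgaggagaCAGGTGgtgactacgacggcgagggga

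The Cd3e member, chr9:45009293-45009826, had peaks of 493 and 516 bp in WT replicates 1 and 2. At Il7r the WT peaks were 250 and 264 bp wide (chr15:9529823-9530096), and at Lck 244 and 336 bp (chr4:129573554-129573889). None of the 3 had a peak in any of the 8 NIH3T3 lists. The nearest KO peak lay 28652 bp from the Cd3e member, 44826 bp from that of Il7r and 11178 bp from that of Lck. None of the 3 windows held a TCF/LEF motif.

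A promoter window overlapped 526 of the 1412 members by at least 150 bp, and 34 of these windows (6.46%) held a TCF/LEF motif, searched as CTTTGAT or CTTTGAA on both strands. In 28 of the 34 the motif lay wholly inside the member. The windows of kept regions held one in 4.59% of cases, and all 32851 promoter windows in 8.65%. The difference between members and kept regions was 1.87 percentage points (95% interval -0.0364 to 4.36). With any overlap of at least 1 bp it was 2.22 points (0.423 to 4.48), and among regions of 250 to 500 bp 0.319 points (-2.73 to 4.04). The stretches around the motif are shown for the 6 with the widest WT peaks among the 32 of these promoters that could be shown and whose window belonged to the nearby gene, with the motif in capitals.
Ifi208, chr1:173673415-173673457, + strand: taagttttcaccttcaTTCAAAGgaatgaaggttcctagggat
Mblac1, chr5:138194078-138194124, + strand: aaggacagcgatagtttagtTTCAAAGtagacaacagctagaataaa
Zfp772, chr7:7209949-7209978, - strand: ggctttgcgtgcaggaggttCTTTGAAact
Fhit, chr14:11162228-11162274, - strand: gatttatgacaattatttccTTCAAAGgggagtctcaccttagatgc
Ripk3, chr14:55788808-55788838, - strand: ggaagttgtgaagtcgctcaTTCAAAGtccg
Bcl2a1d, chr9:88732014-88732060, - strand: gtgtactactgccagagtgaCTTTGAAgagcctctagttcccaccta

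Ifi208 belongs to the interferon-inducible family of genes, Ripk3 encodes a kinase of necroptosis, and Bcl2a1d belongs to the BCL2 survival family. Fhit encodes a small hydrolase and Zfp772 a zinc finger protein. The motif of Mblac1 lay outside its member, and those of the other 5 inside theirs. The members of Ifi208, Fhit, Ripk3 and Bcl2a1d had no peak in any NIH3T3 list, that of Zfp772 had one in 3 Tcf-1 RV and 3 Empty RV lists, and that of Mblac1 in all 8.

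Most members lay at gene starts, but gene 3′ ends made up far more of them than of the kept regions. A strand was known for 1089 members: 884 had a gene start as their nearest boundary and 205 a 3′ end. The 3′ ends were 18.8% of members (95% Wilson interval 16.6 to 21.3) and 1.18% of kept regions (0.924 to 1.51). Read the other way, 205 of 315 regions at 3′ ends (65.1%, 59.7 to 70.1) were lost and 884 of 6747 at starts (13.1%, 12.3 to 13.9). Of the 205 members at 3′ ends, 9 had a protein-coding gene start within 1 kb. These and all later intervals reflect counting error alone, and regions near each other are not independent.

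Around starts the share lost was lowest within 250 bp and higher farther away. It was 11.2% from 250 bp before the start up to it and 9.99% in the first 250 bp of the gene. From 500 to 1000 bp before the start it was 50.9%, and from 500 to 1000 bp inside the gene 26.4%. Around 3′ ends the share lay between 53.2% and 73.7% in every bin. Just inside the 1 kb limit, from 800 to 1000 bp, 133 of 325 regions were lost (40.9%), and just outside it, from 1000 to 1200 bp, 110 of 249 (44.2%).

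**Figure D1:**
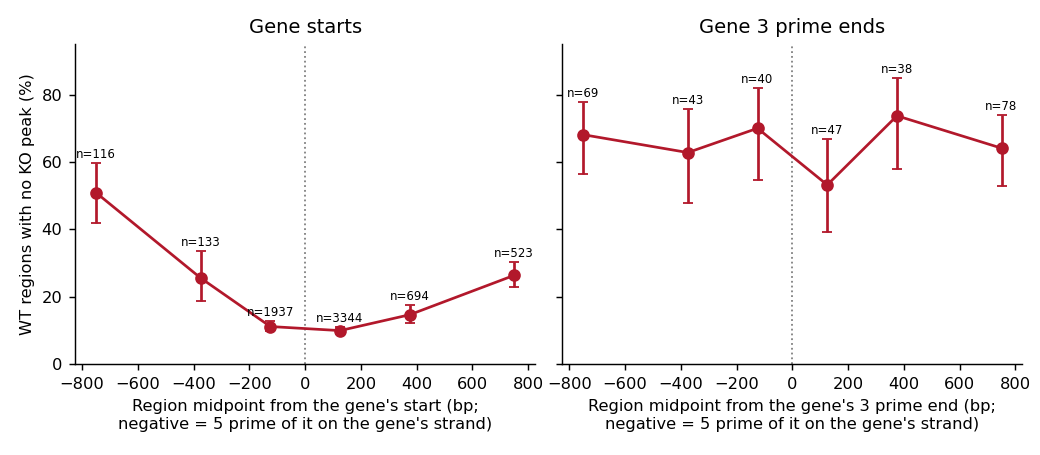
Share of gene-boundary regions in both WT lists with no KO peak (vertical axis, %) by the distance of the midpoint from the gene's start (left) or 3′ end (right), in bp. Points are bins with 95% Wilson intervals and n is the number of regions; at starts the share dips to 9.99% and at 3′ ends no bin is under 53.2%.

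Members were narrow. Their median peak width was 272 bp in WT replicate 1 and 354 bp in WT replicate 2, against 558 and 668 bp for kept regions. In WT replicate 1, 542 members (38.4%) had a peak of at most 250 bp, near the smallest width in the lists of 200 bp, against 140 kept regions (2.19%). By mean WT width, 66.1% of the 885 boundary regions under 300 bp were lost, 30.9% of those from 300 to under 400 bp, 11.3% of those from 400 to under 600 bp and 2.05% of those of 600 bp or more. Within each width class the 3′ ends lost more: 91.2% against 59.1% at starts in the narrowest class, and 50.0% against 9.96% from 400 to under 600 bp. The nearest KO peak was a median of 23869 bp away, within 1 kb for 197 members and over 10 kb away for 975 (69.1%).

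None of the 15 members with the widest WT peaks was at a gene of the T cell lists described below. At Lor, which encodes the skin barrier protein loricrin, the WT peaks were 1188 and 1344 bp wide (chr3:92080575-92081918) and the nearest KO peak was 1370115 bp away. Gnaq, a G protein subunit, had WT peaks of 1055 and 1268 bp 425 bp inside its start. Rab32, a small GTPase, had 1003 and 1050 bp and Car2, a carbonic anhydrase, 1018 and 945 bp. Zc3h12c, which encodes a regulator of RNA decay, had 967 and 929 bp. Next in width were Svip, Rin3, Setbp1, Btc, Adgrl2, Ybx3, Rasgef1b, Syne1, Napb and Nrp1, with mean WT widths of 874 to 794.5 bp. All 15 were also lost with the same number of peaks in every DP library. That cut kept the widest peaks and added no KO peak, so the outcome followed from how the 15 were chosen. For 12 of them the nearest KO peak was over 100 kb away. Of the 15, 6 had a peak in all 8 NIH3T3 lists and 5 in none, and the members of Lor, Car2, Rin3 and Syne1 lay in H3K9me3 islands of both replicates.

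The members fell at 1469 of 9327 genes with a boundary region in both WT lists (15.7%). All such regions were lost at 1141 genes, 264 genes had both lost and kept ones, and 1402 genes had 1 lost region. Cacnb2, a calcium channel subunit, Neurl4, an adaptor of a ubiquitin ligase, and Abhd14b, a hydrolase, had 3 lost regions each. At Cacnb2, 1 lay 590 bp inside the start (WT peaks of 412 and 718 bp) another 56 bp before the 3′ end, and the last 815 bp past the 3′ end of Nsun6, the nearer gene. Those assigned to Neurl4 and Abhd14b included some nearer to another gene, the starts of 2810408A11Rik and Gps2 beside Neurl4 and a boundary of Pcbp4 of unknown strand beside Abhd14b. The nearest gene of 1 of the 2 Aida members was Brox. A further 64 genes had 2, among them Btla, Nrgn, Srgap1, Gucy1b1, Lbh, Foxo4 and Aida. At Btla, an inhibitory receptor of T and B cells, WT peaks of 571 and 550 bp lay 316 bp inside the start and peaks of 560 and 621 bp lay 731 bp before the 3′ end.

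The gene lists below, like the members, were drawn up with earlier results of these data known, and no test over a list was made. Each share is to be read against the 15.7% of all genes, and each list's genes were counted if they had a boundary region in both WT lists. That background is not matched for width or for peaks in fibroblasts. By region, 51.4% of boundary regions in no NIH3T3 list were lost, against 5.34% of those in all 8. A list share above 15.7% therefore does not by itself single out the genes of a list.

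Among costimulatory and surface glycoproteins of T cells, 10 of 16 genes (62.5%) lost a region, with 11 members. Cd96, a receptor of T and NK cells, had WT peaks of 523 and 609 bp at its start (chr16:46119930-46120538). Tnfrsf1b, a tumour necrosis factor receptor, had 438 and 557 bp, and Tnfrsf18, which encodes the costimulatory receptor GITR, 382 and 479 bp. Pdcd1, the PD-1 receptor, had 291 and 457 bp 7 bp before its start, and Ctla4, which restrains costimulation, 284 and 203 bp. Cd5, Cd6, Icos, Ly9 and Btla made up the rest. Of the 11 members, 9 had no peak in any NIH3T3 list. With the same number of peaks in every library, 4 of 8 genes were lost, Cd96, Btla, Tnfrsf1b and Tnfrsf18, against 5.09% of all genes. That cut kept wide WT peaks and added no KO peak. Here and in the lists below, its counts follow in part from peak width and do not set a list apart.

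Coreceptor and DP stage genes lost regions at 5 of 10 genes (50.0%). Cd4 had 2 members, with WT peaks of 204 and 418 bp (chr6:124863541-124863958) and of 200 and 245 bp (chr6:124864105-124864349). Both lay nearer to a boundary of Gpr162, at 445 and 32 bp, and KO replicate 2 had a peak elsewhere at Cd4. At Cd8a, the other coreceptor, peaks of 238 and 293 bp lay 67 bp inside the start. Cd69, an early marker of receptor signalling, had 451 and 519 bp, Ccr9, a chemokine receptor of thymocytes, 231 and 336 bp, and Slamf1 245 and 260 bp. None of the 6 members had a peak in any NIH3T3 list, and 4 of them, at Cd4, Cd8a and Cd69, lay in H3K27me3 islands. With the same number of peaks in every library, Cd69 was the 1 gene lost of 3.

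In the T cell receptor complex and its proximal signalling, 8 of 28 genes (28.6%) lost a region. Besides Cd3e and Lck they included Cd247, the zeta chain, with WT peaks of 408 and 722 bp, and Cd3d, with 316 and 507 bp 419 bp before its 3′ end. Sla, Sh2d1a and Ptpn6, which encode an adaptor, another adaptor and an inhibitory phosphatase, had mean WT widths of 226 to 326 bp. With the same number of peaks in every library, 4 of 16 genes lost one, among them Cd3e, Cd247 and Themis, which encodes a thymocyte signalling protein and is no member. Over the receptor, DP and costimulatory lists together, 22 of 25 members had no peak in any NIH3T3 list (48.1% of all members). Of the 25, 8 lay in H3K27me3 islands (11.8% of all members) and 0 held a Tcf-1 summit of fibroblasts (7.93% of all members). Among all members in no NIH3T3 list, 21.5% lay in H3K27me3 islands and 1.47% held a summit. Tcf-1 binding in thymocytes was not measured here.

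T lineage transcription factors lost regions at 6 of 27 genes (22.2%). At Gfi1, a transcriptional repressor that acts in blood cell development, the WT peaks were 300 and 890 bp wide (chr5:107725420-107726309). At Runx3, which acts in CD8 lineage choice, they were 398 and 454 bp wide. Notch1, the receptor that commits cells to the T lineage, had 247 and 482 bp 3 bp before its start, and Hes1, a Notch target, 362 and 285 bp. The regions of Runx1 and Foxp1 were narrower, with mean widths of 270 and 240.5 bp. With the same number of peaks in every library, Runx3 was the 1 gene lost of 16. The Hes1 member held a Tcf-1 summit in fibroblasts, with a score of 15.82 and no peak in any of the 8 lists.

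Cytokine receptor genes (4 of 18, 22.2%) and homing genes (3 of 16, 18.8%) were closer to the background. Beside Il7r the first group held Jak3, a kinase below the common gamma chain (200 and 565 bp), Cish, which dampens cytokine signals (264 and 430 bp), and Il4ra (249 and 201 bp). Both Cish and Il4ra had peaks in all 8 NIH3T3 lists. The homing members included those of Ccr7, a chemokine receptor (408 bp in both WT libraries), and Rhoh, a GTPase of blood cells (294 and 346 bp), and all 3 members of the list lay in H3K27me3 islands.

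Of Wnt pathway genes and partners of Tcf-1, 3 of 17 (17.6%) lost a region, at Myc (WT peaks of 208 and 680 bp), Cd44 (264 and 430 bp) and Bcl9l, a coactivator of β-catenin (220 and 288 bp). All 3 had peaks in NIH3T3 lists, and a KO peak lay 1426 bp from the Myc member. Apoptosis genes lost regions at 5 of 15 genes (33.3%), the pore formers Bax and Bak1, the BH3-only gene Bad, the death receptor gene Fas and its inhibitor Cflar, with mean widths of 236 to 319.5 bp. The Bad member lay nearer to the start of Gpr137. Chromatin regulators (5 of 25, 20.0%: Tet1, Arid1a, Arid1b, Hdac7 and Trim28), cell cycle genes (3 of 21, 14.3%: Plk1, Cdk6 and Aurkb) and housekeeping genes (2 of 16, 12.5%: Eef2 and Rps18) lay near the background. The Trim28 and Rps18 members lay nearer to other genes, Gm31649 and B3galt4, and both genes also kept a region. With the same number of peaks in every library, the cytokine, homing, Wnt, apoptosis, chromatin and housekeeping lists had no gene lost. They held 10, 8, 13, 10, 16 and 8 genes with a boundary region there, and 5.09% of all genes lost a region. A member whose narrow WT peak the cut removed could not be counted as lost, so these counts do not set the lists apart.

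Lists of other lineages held few genes open in WT DP cells, and several lost them. NK, innate and effector genes lost regions at 3 of 5 genes (60.0%): Fasl, the ligand of the death receptor (429 and 510 bp), Gzma, a granule protease (390 and 392 bp), and Il12rb2 (285 and 366 bp), all in H3K27me3 islands. Myeloid and dendritic genes lost them at 3 of 4 (75.0%), Flt3, Cebpa and Batf3, with mean widths of 426.5, 337.5 and 218.5 bp. B lineage genes lost 1 of 3 (33.3%), at Ebf1 (439 and 465 bp). Fibroblast and stromal genes lost 3 of 4 (75.0%), Yap1, Lox and Pdgfrb, and MHC presentation genes 3 of 9 (33.3%), Tap1, H2-Ab1 and Erap1. With the same number of peaks in every library, the genes lost were 1 of 3 for NK and effector genes, 0 of 1 for myeloid, 1 of 3 for B lineage, 1 of 2 for fibroblast and 1 of 8 for MHC genes. Whether the sorted WT cells held a few cells of these lineages was not tested.

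**Figure D2:**
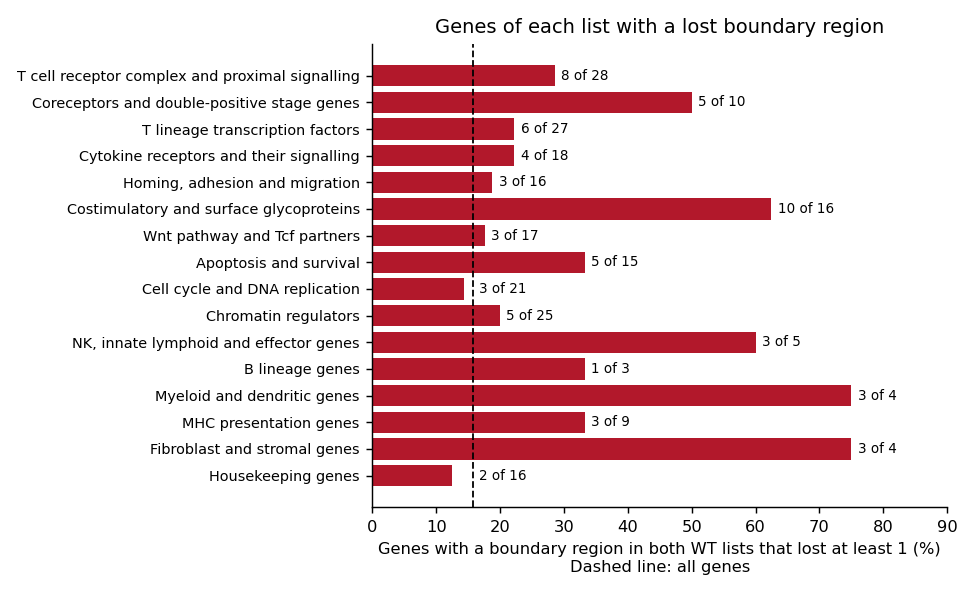
Share of the genes of each list with a boundary region in both WT lists that lost at least 1 (horizontal axis, %), with the counts beside each bar. The dashed line is the 15.7% of all genes; costimulatory genes reached 62.5% and housekeeping genes 12.5%.

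The NIH3T3 libraries took no part in the choice of members. Members had a peak in 40.7%, 40.6%, 37.7% and 49.2% of cases in Tcf-1 RV replicates 1 to 4, and in 22%, 37.7%, 43.6% and 49.3% in Empty RV replicates 1 to 4. The arms overlapped, and Empty RV replicate 1, with the shortest list, was the lowest. Tcf-1 RV libraries averaged 42% ± 4.99 and Empty RV libraries 38.1% ± 11.8 (SD, n = 4 each), a difference of 3.90 points that did not exceed the spread (exact two-sided permutation test p = 0.743, 0.743 after Benjamini-Hochberg adjustment over 3 classes of region). The smallest p that 4 against 4 libraries allow is 0.0286. Pairs of the same replicate number differed by -5.95 to 18.7 points, with Tcf-1 RV higher in 2 of 4 (exact sign-flip test over pairs, p = 0.750). Without Empty RV replicate 1 the difference was -1.50 points. The replicates tagged day 2 in the file names differed by 10.8 points and those tagged day 4 by -3.01.

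The same libraries called far fewer members than kept regions. Over all 8, members averaged 40.1% ± 8.63 and kept boundary regions 90.2% ± 4.95 (SD, n = 8), a difference of -50.2 points that ran from -56.4 to -44.2 and was negative in 8 of 8 libraries (exact two-sided sign-flip test p = 0.00781, the smallest it can give). With libraries of the same number averaged, the exact sign-flip test over 4 pairs gave p = 0.13, again the smallest it can give. Among regions of 250 to 500 bp the difference was -45.3 points, and at gene starts -46.5. Lost regions away from gene boundaries averaged 19.3% ± 6.64. Members exceeded them by 20.8 points (14.1 to 22.7, higher in 8 of 8 libraries, exact sign-flip test p = 0.00781 with libraries taken singly). These sign-flip tests took libraries of the same cell line as units, while the sets of regions were fixed by DP calls and position. Kept regions also had wider WT peaks than members. The p-values therefore show only that the sign repeated across libraries, and do not test a difference between kinds of region.

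**Figure D3:**
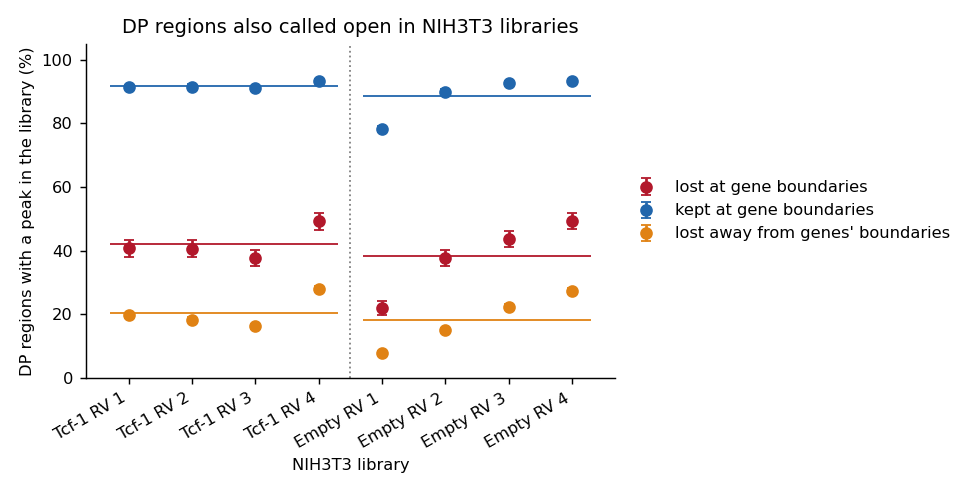
Share of DP regions with a peak in each NIH3T3 library (vertical axis, %), for regions lost at gene boundaries, kept at gene boundaries and lost elsewhere; bars are 95% Wilson intervals and lines the means of an arm. Members lie between 22% and 49.3%, under the kept regions in every library.

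By single regions, 679 members (48.1%) had a peak in no NIH3T3 list, against 6.14% of kept regions, and 300 (21.2%) in all 8, against 78%. Of boundary regions in no NIH3T3 list, 51.4% were lost in KO cells, and of those in all 8, 5.34%. This order was found in every width class. From 300 to under 400 bp, 56.8% of regions in no NIH3T3 list were lost, against 30.8% of those in 1 to 7 and 15.1% of those in all 8. At 600 bp or more the shares were 12.4%, 6.23% and 0.871%. Members at 3′ ends were in no NIH3T3 list in 63.9% of cases and those at starts in 44.6%.

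**Figure D4:**
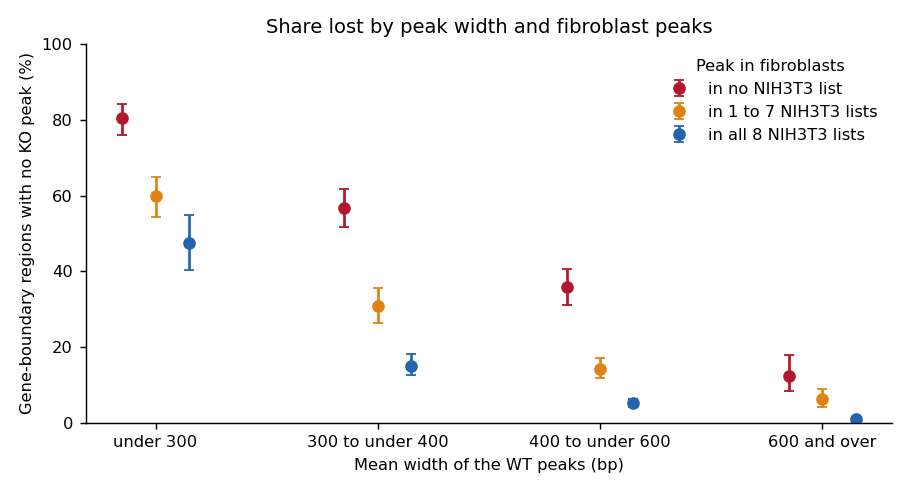
Share of gene-boundary regions with no KO peak (vertical axis, %) by mean WT peak width (horizontal axis, bp) and by how many of the 8 NIH3T3 lists had a peak there; bars are 95% Wilson intervals. In each width class the share is highest in no NIH3T3 list, from 80.4% in the narrowest class to 12.4% in the widest.

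Few members were called with Tcf-1 RV and not with Empty RV. A peak in at least 3 Tcf-1 RV lists and at most 1 Empty RV list was found at 10 members (0.708%), against 0.720% of all regions in both WT lists, and the reverse pattern at 8 (0.567%), against 0.374%. Of the 10, 3 held a Tcf-1 summit. At Zbp1, a sensor of Z-form nucleic acids, the member (chr2:173218533-173219230, WT peaks of 558 and 698 bp) was called in 4 Tcf-1 RV and 0 Empty RV lists and held a summit with a score of 35.56. The others were at 1700011L22Rik (score 17.55) and Osbpl7, an oxysterol-binding protein (6.237). The sources used here do not give the scale of the score.

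Tcf-1 summits in fibroblasts were rarer at members than at kept regions. A summit lay in 112 members (7.93%) and in 1263 kept boundary regions (19.8%), a difference of -11.8 points (95% Newcombe interval -13.5 to -10.0). Among lost regions elsewhere the share was 5.90%. The top score had a median of 12.9 at members and 13.1 at kept regions. Summits were more frequent where more fibroblast lists had a peak: they lay in 1.47% of members in no NIH3T3 list, 10.9% of those in 1 to 7 and 18.3% of those in all 8.

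Repressive marks were more frequent at members than at kept regions, taking starts and 3′ ends together. In H3K27me3 islands of both replicates lay 167 members (11.8%) and 2.41% of kept boundary regions, a difference of 9.42 points (7.78 to 11.2). In H3K9me3 islands lay 74 members (5.24%) and 2.07% of kept regions, a difference of 3.17 points (2.06 to 4.50). The shares for lost regions elsewhere were 10.1% and 5.51%. Members in no NIH3T3 list were in H3K27me3 in 21.5% and in H3K9me3 in 9.43% of cases, and members in all 8 lists in 0.667% and 1.00%. The widest members in H3K27me3 were at Vsig8, Snx20, Hfm1, Gfi1 and Nos1ap, with mean WT widths of 694 to 578 bp. In H3K9me3 the widest were the 4 named above and Zfp2, a zinc finger gene.

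**Figure D5:**
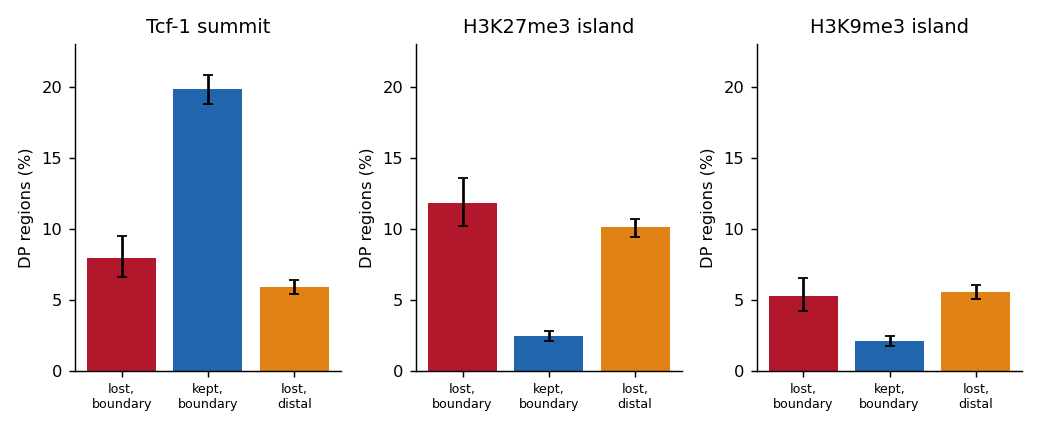
Share of DP regions (vertical axis, %) with a Tcf-1 summit of Tcf-1 RV fibroblasts (left) or in H3K27me3 (middle) or H3K9me3 islands (right) of both replicates, for lost and kept boundary regions and lost distal regions; bars are 95% Wilson intervals. Members are lower than kept regions for summits, 7.93% against 19.8%, and higher for H3K27me3, 11.8% against 2.41%.

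The promoter windows of members were poorer in CpG than those of kept regions. The observed over expected CpG ratio had a median of 0.696 in the 526 member windows, 0.840 in 4919 kept windows and 0.384 in all windows. It was above 0.6 in 59.7% of member and 88.3% of kept windows (difference -28.6 points, -32.9 to -24.4). At Il7r it was 0.0647, at Lck 0.289 and at Cd3e 0.333.

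SP/KLF, ETS and NRF1 motifs were rarer in member windows, and E protein, RUNX, GATA and TATA motifs more frequent. SP/KLF letters (GGGCGG) were in 61.8% of member and 76.2% of kept windows, ETS letters in 16.3% and 25.5%, and NRF1 letters (GCGCATGC) in 3.61% and 6.87%. E protein letters were in 35.2% of member and 27.5% of kept windows, a difference of 7.65 points (3.49 to 12.0), and RUNX letters in 6.65% and 3.05%, a difference of 3.60 points (1.70 to 6.10). Among regions of 250 to 500 bp these differences were 6.12 points (-0.102 to 12.6) for E protein and 2.68 points (-0.483 to 6.55) for RUNX letters, and for GATA letters 2.05 points (-1.32 to 6.09). GATA letters (AGATAA) were in 7.79% and 4.07%, and TATA letters (TATAAA) in 9.13% and 4.82%. In all windows the shares were 35.7% for SP/KLF, 12.0% for ETS, 2.71% for NRF1, 32.9% for E protein, 5.27% for RUNX, 11.2% for GATA and 13.6% for TATA. All were searched on both strands, and a match is not a bound site. In windows of members in no NIH3T3 list, E protein letters reached 47% and RUNX letters 10.7%, against 25.6% and 3.66% of members in all 8 lists.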

How the data were processed

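The authors deposited ATAC-seq peaks as start and end positions with no height, Tcf-1 summits with a score each, and histone islands with ChIP and control read counts, the ratio (fold) over control and p-values, per the file headers. Per the submitters' processing notes, Bowtie2 2.2.9 and MACS2 were among the tools and GRCm38 (mm10) among the builds. The sources used here do not say which tool made which file.

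From the 16 samples with a file, peaks on chromosomes were merged and 293 unplaced peaks left out. Members and gene lists were chosen with earlier results of these data known. Genes came from RefSeq (GRCm38.p6, 21887 protein-coding genes), and strand, for 17492 of them, from the RefSeq promoter table, which also gave the sequences. A region held a summit that lay within it, and lay in a mark if its midpoint was in an island of both replicates. Libraries were compared with exact permutation or sign-flip tests, and shares with 95% Wilson or Newcombe intervals. Code was tested on simulated data (Python 3.11.15, pandas 2.3.3, scipy 1.17.1). Named genes were the 15 with the widest mean WT peaks, up to 10 with the most members, and list genes. Up to 5 of the widest members in each mark were also named. So were members with a summit and a peak in at least 3 Tcf-1 RV and at most 1 Empty RV lists. Some genes that met these rules are not reported here.

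NIH3T3 libraries of the same replicate number were correlated after removal of the arm means (0.125 to 0.260 in the 4 pairs), so the numbers were taken as pairs. Libraries sharing a day tag were correlated too (0.0648 to 0.194). The ranges overlap, and Tcf-1 RV replicate 1 was as close to Empty RV replicate 2 (0.194) as to replicate 1 (0.187). Replicate number is thus not set apart from day. The 4 against 4 permutation test took account of neither. The 2 DP pairs were not (-0.0505). Alternatives were other definitions of lost and of a boundary, equal list lengths, leaving out libraries, the midpoint in place of the region, and a width band.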

Additional observations from a re-analysis of the deposited data

Results flagged for a closer look

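The difference between Tcf-1 RV and Empty RV libraries in the share of members with a peak went one way in both pairs tagged day 2 and the other way in both pairs tagged day 4. The mean difference was 10.8 points at day 2, from pairs of 18.7 and 2.90 points, and -3.01 points at day 4, from pairs of -5.95 and -0.0708 points. Whether the days differ was not tested. Kept boundary regions had pair differences of 13.1, 1.60, -1.50 and -0.0157 points, of the same signs. The list of Empty RV replicate 1, in the pair that differed most, held 22778 peaks, against 47623 in Tcf-1 RV replicate 1, and the part of list length in the pattern was not tested. That Empty RV library was also the lowest of its arm for kept boundary regions, at 78.4% against 92.6% and 93.5% in replicates 3 and 4, and had peaks at 5 of 8 fibroblast markers, against 8 of 8 in the other NIH3T3 lists.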

How the results depend on the processing

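The number of lost boundary regions, 1412, was 304 with DP lists cut to equal length by width, and 1676 to 2834 without 1 WT or KO replicate; under the other 5 definitions it lay within 1.5 times of 1412. The share of members at a gene start, 81.2%, became 86.4% within 500 bp, 75.5% within 2 kb, 86.6% where peaks had to cover 50% of a region, 78.7% with no KO peak within 1 kb, 88.8% with equal DP lists, and 83.4% to 84.7% without 1 DP library. The Tcf-1 RV minus Empty RV difference, 3.90 points, was -0.726 with equal NIH3T3 lists (exact permutation p = 0.800) and -3.01 at day 4 alone, and ran from -1.50, without Empty RV replicate 1, to 7.61 when 1 library was left out (permutation p 0.457 to 1.00). The cause was not tested. With the replicate block the value was 3.90 (exact sign-flip p = 0.750). DP calls in both same-numbered pairs are the main rule, so the block gave 1412 again. The summit difference, -11.8 points, was -5.25 for summits within 100 bp of the midpoint, -3.23 for the higher-scoring summits, and -13.4 to -9.95 without 1 DP library. The H3K27me3 difference, 9.42 points, was 13.5 for an island of either replicate, and 11.1 and 11.9 with 1 replicate left out. The members minus kept difference in NIH3T3 peaks, -50.2 points, was negative in 22 of 22 alternatives, from -57.2 to -39.4; its p was the smallest each design allows and so says nothing of stability, and was 0.13 with the replicate block (exact sign-flip over 4 pairs, -50.2 points). Differences in CpG and the 8 motifs kept their direction under both alternatives, but from 250 to 500 bp the intervals for TCF/LEF, E protein, RUNX and GATA included 0, and the differences for ETS (-16.2 points) and NRF1 (-4.78) lay farther from 0. Added after seeing the data were the effects of other definitions of lost on the other results, the regions at starts, the width band for marks and promoters, and the block over pairs for members minus kept. Peak lists without depth limit every DP count.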

Other observations

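A larger share of gene-boundary regions was lost on the X chromosome than on the autosomes. Of 276 gene-boundary regions there in both WT lists, 78 were lost (28.3%, 95% Wilson interval 23.3 to 33.8), against 1334 of 8436 on the autosomes (15.8%, 15.1 to 16.6). These shares come from the calls that chose the members and carry no test. The mean WT peak had a median width of 514 bp on X and 544 bp on the autosomes, and for lost regions 368 and 320 bp. Of all peaks, 2.17% and 2.31% lay on X in the KO lists and 2.49% and 2.54% in the WT lists. The Y chromosome had 4 and 6 peaks in the KO lists and 2 and 4 in the WT lists. The labels give no sex. The pattern was chosen after its values had been seen.

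Members had close neighbours more often than kept regions did, again by the calls that chose them. Another lost region lay within 10 kb of 22.2% of members (20.1 to 24.4), 12.1% of kept boundary regions and 23.3% of lost distal regions. A kept region lay within 2 kb of 153 members (10.8%), 3.18% of kept boundary regions and 2.38% of lost distal regions.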
